A study of Oryza sativa with 12 samples.

Results

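The transcripts described here are the transposon-like transcripts among those that the submitters added to the rice annotation. They are the rows of the deposited expression table whose identifier marks a transcript outside the annotation and whose description names a transposon, a transposase, a retrovirus-related protein or a reverse transcriptase. The rule reads the description alone and no measured value, and it found 38 of the 40674 rows of the table. The rule itself was set with earlier results of these data known. Transcripts are named here by family, chromosome and a letter for their order along it, so that Copia2b is the second Copia-type transcript on chromosome 2; in the table they carry running numbers. The unannotated rows numbered 1696 in all, so 1658 of them carried no such wording, and 177 annotated rows carried the same wording.

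Under heat most of these transcripts were more abundant, in both lines, and some that had a handful of reads or none at 28 °C had many at 42.5 °C. In seedlings at 42.5 °C against 28 °C, 34.0% of all tested genes rose and 36.4% fell in line HPS32. The shares were 38.1% and 36.8% in line HJX. Of the 35 testable transcripts, 24 rose and 4 fell in HPS32, and 23 rose and 5 fell in HJX. Among the steepest rises, over 100-fold in both lines, were those of Gypsy7a, a Gypsy-type retrotransposon transcript on chromosome 7, and Copia2b, a Copia-type one on chromosome 2. The steepest fall was that of DNA5a, a DNA transposon-like transcript on chromosome 5. For 7 of the 35 the heat response differed between the lines, 4 above 0 and 3 below as HPS32 minus HJX, where 13.3% and 16.0% of all tested genes were so called. The widest difference was that of Copia1a, a Copia-type transcript that rose 18.3-fold in HJX and 3.40-fold in HPS32.

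Transposons are DNA segments that can move or copy themselves within a genome. Retrotransposons do so through an RNA copy that a reverse transcriptase turns back into DNA, so their transcript is also the intermediate of their spread. Copia and Gypsy elements are the main families of plant retrotransposons with long terminal repeats, and they encode a Gag protein, which packages the RNA, and a Pol polyprotein with protease, integrase, reverse transcriptase and ribonuclease H. LINE elements carry a reverse transcriptase but no terminal repeats. DNA transposons of the hAT and Harbinger types instead encode a transposase that cuts the element out. Plants keep most copies silent with DNA methylation, repressive histone marks and small RNAs, and several plant retrotransposons are known to be transcribed under stress, the Copia-type ONSEN of Arabidopsis under heat among them.

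The 12 libraries were RNA sequencing libraries of aerial organs of 12-day-old rice (Oryza sativa) seedlings of 2 near-isogenic lines. HPS32 stands for NIL-TT2HPS32, whose genotype the labels give as a loss of function of TT2, and HJX for NIL-TT2HJX, labelled wild type. The 4 groups of 3 libraries were HPS32 at 42.5 °C for 20 h, HPS32 at 28 °C for 20 h, HJX at 42.5 °C for 20 h and HJX at 28 °C for 20 h, and all plants had been grown at 28 °C. The labels say neither how long the segment that separates the lines is nor whether replicates were separate plants, so p-values measure the spread between these samples, which may be technical. Library columns at 42.5 °C cannot be tied to a replicate number and are called heat libraries 1 to 3.

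Each library held 14785975 to 17871972 reads assigned to genes. TT2 itself (Os03g0407400) had 0 to 7 reads per library, too few for its transcript level to check the genotype. Of the tissue markers, the chlorophyll-binding protein gene Os01g0600900 stood at 274 to 436 CPM per kilobase (CPM, counts scaled by TMM to a common library size, here divided by gene length) in HPS32 at 42.5 °C, 11937 to 13218 in HPS32 at 28 °C, 81.1 to 155 in HJX at 42.5 °C and 11276 to 14044 in HJX at 28 °C. The channel protein gene Os02g0745100, of a family with many root members, lay between 1.24 and 9.62 CPM per kilobase throughout. The scaling factors (TMM, which sets libraries to a common level over the bulk of genes) were 1.26 to 1.28 in HPS32 at 42.5 °C, 0.856 to 0.865 in HPS32 at 28 °C, 1.06 to 1.07 in HJX at 42.5 °C and 0.843 to 0.890 in HJX at 28 °C. In bulk tissue, fewer cells of a type and less RNA per cell cannot be told apart.

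By the protein closest to each transcript in the deposited descriptions, 18 transcripts were Copia-type, 10 Gypsy-type, 2 LINE-type and 8 DNA transposon-type. The most frequent match, in 15 transcripts, was the Pol polyprotein of Tnt1, a Copia element of tobacco. Among the protein domains listed, the integrase core stood in 16 transcripts, the GAG-pre-integrase domain in 13, reverse transcriptase in 10 and the zinc knuckle of Gag-type proteins in 7. All 4 of these domains stood together in 4 transcripts, Copia8a, Copia3b, Copia2a and Copia7a, and 9 transcripts had no domain listed. A hAT dimerisation region stood in DNA6a, DNA8a and DNA1b. In 6 transcripts the description also named something of another kind, such as a PIF1-like helicase in Copia4c, a plant mobile domain in Gypsy1c and a closest match to a glutathione S-transferase in DNA5a.

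These transcripts were long, with a median length of 4489.5 bases (1320 to 13281), against 978 bases for the other unannotated rows and 1388 bases for annotated genes. The longest were Gypsy1c (13281 bases, chromosome 1, from 20848998 to 20863199, plus strand), Copia2a (11252 bases, chromosome 2, from 11894311 to 11906151, minus strand) and Copia4a (10022 bases, chromosome 4, from 11348420 to 11372349, plus strand). Coordinates are those of the deposited table, whose genome build is not given in the sources used here. They lay on 11 of the 12 chromosomes, with 7 each on chromosomes 1 and 4 and none on chromosome 12. None overlapped an annotated gene, and the nearest annotated gene was at a median distance of 2470.5 bases (58 to 71476). Within 250 kb of a transcript there were a median of 49 annotated genes, against 47 around other unannotated rows and 61 around annotated genes. No sequence of these transcripts is printed, because the genome was not used here.

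Levels were low for most of them. Per length, the median over the 38 transcripts was 1.91 CPM per kilobase in HPS32 at 42.5 °C, 0.818 in HPS32 at 28 °C, 1.80 in HJX at 42.5 °C and 0.846 in HJX at 28 °C. The median of all tested genes was 8.21, 8.13, 7.95 and 8.11 CPM per kilobase in the same 4 groups. Most abundant per length at 42.5 °C in both lines was DNA6a, a hAT transposase-like transcript, with 37.7 ± 1.84 CPM per kilobase in HPS32 at 42.5 °C, 23.6 ± 0.960 in HPS32 at 28 °C, 23.0 ± 1.64 in HJX at 42.5 °C and 23.4 ± 0.446 in HJX at 28 °C (SD, n = 3 each). The share of assigned reads that fell on the 38 transcripts was 0.0981, 0.101 and 0.104% in HPS32 at 42.5 °C, against 0.0438, 0.0467 and 0.0420% in HPS32 at 28 °C. In HJX it was 0.113, 0.109 and 0.115% at 42.5 °C, against 0.0408, 0.0503 and 0.0528% at 28 °C. The groups did not overlap, and the mean share was 2.29 times as high at 42.5 °C in HPS32 and 2.34 times in HJX. All unannotated rows together took 2.06 ± 0.0211% of reads in HPS32 at 42.5 °C, 0.640 ± 0.00817% in HPS32 at 28 °C, 2.31 ± 0.0440% in HJX at 42.5 °C and 0.644 ± 0.0484% in HJX at 28 °C. Among unannotated reads the share of all 38 transcripts was lower under heat, at 4.83 to 5.02% in HPS32 at 42.5 °C and 6.48 to 7.39% in HPS32 at 28 °C, and at 4.62 to 5.10% in HJX at 42.5 °C and 6.83 to 7.84% in HJX at 28 °C. That direction rests on Copia4c, described below. Without it the share was 4.12 to 4.34% in HPS32 at 42.5 °C and 3.76 to 4.02% in HPS32 at 28 °C, higher under heat, and 4.03 to 4.52% in HJX at 42.5 °C and 3.94 to 4.49% in HJX at 28 °C, which overlap.

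**Figure D1:**
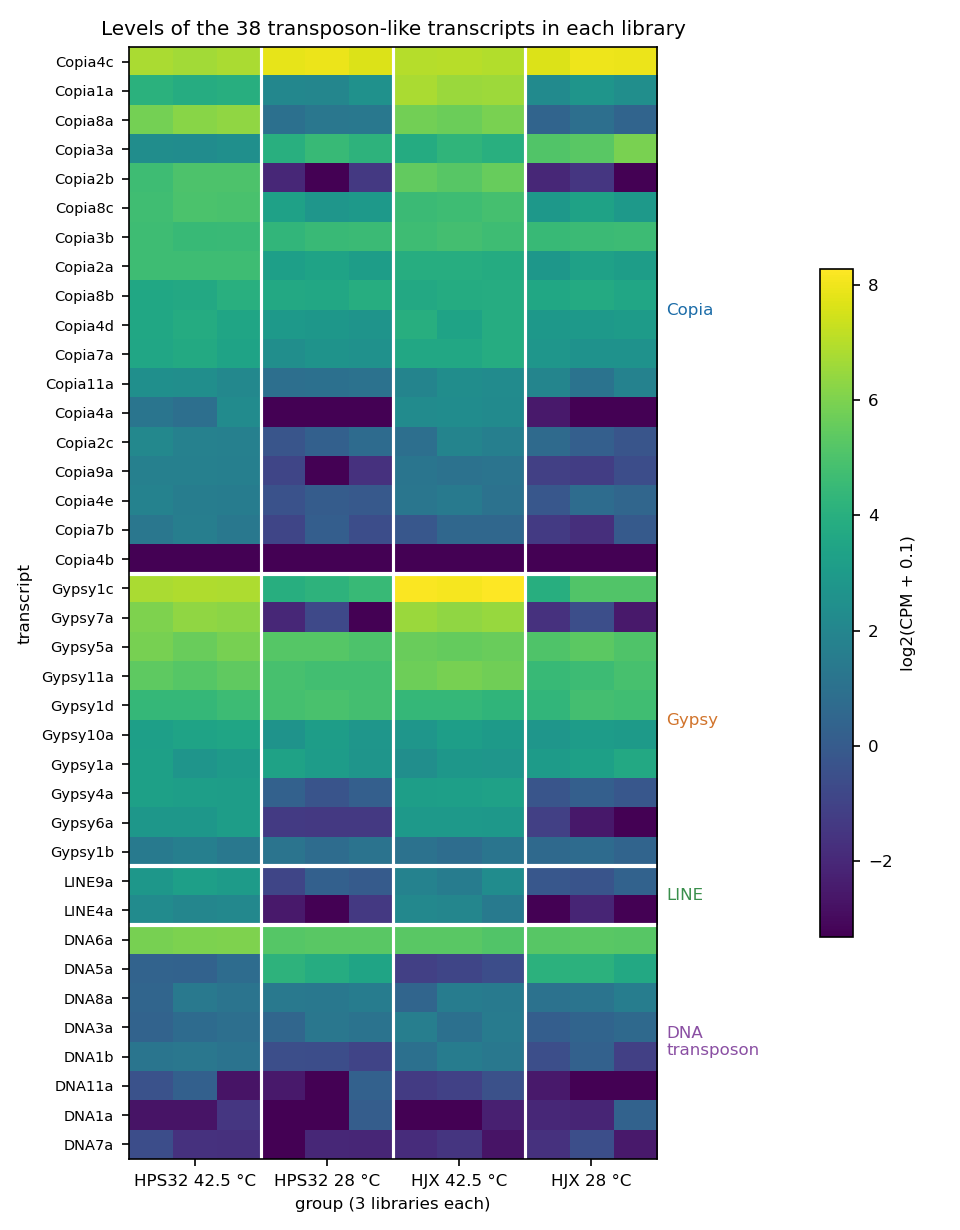
Levels of the 38 transcripts (rows, grouped by family and sorted by their highest group mean) in the 12 libraries (columns, 3 per group), as log2 of the TMM-scaled CPM plus 0.1. Rows such as Gypsy7a and Copia2b are dark at 28 °C and bright at 42.5 °C in both lines, whereas DNA5a and Copia3a are brighter at 28 °C.

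The first question of the design is what heat changed within each line. Of the 38 transcripts 35 passed the filter on low counts, and the 3 others were DNA7a, DNA1a and Copia4b. A transcript that is low in all groups but one passes this filter through that group, and an unannotated transcript can enter the table only where reads support it, so the counts that follow describe the 35 and do not set them apart from other genes. In HPS32, 24 of the 35 rose and 4 fell (edgeR's quasi-likelihood test, adjusted p under 0.05 over all genes), where 34.0% of all 25473 tested genes rose and 36.4% fell. In HJX, 23 rose and 5 fell, where 38.1% of all tested genes rose and 36.8% fell. The median log2 fold change of the 35 was 1.40 in HPS32 and 1.08 in HJX, and that of all tested genes -0.03 in HPS32 and 0.03 in HJX. The rise was at least 2-fold for 19 transcripts in HPS32 and 18 in HJX. The share of all tested genes that rose by as much is not given here, so these counts only describe the transcripts.

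The same direction held in other rows of related kinds, with smaller medians. Of the 1246 tested unannotated rows without transposon wording, 642 rose and 217 fell in HPS32 (median log2 fold change 0.75), and 626 rose and 254 fell in HJX (median 0.67). Of the 96 tested annotated rows with the same wording, 48 rose and 17 fell in HPS32 (median 0.27), and 52 rose and 18 fell in HJX (median 0.43). With library totals as the only scaling, the median of all genes moved to 0.54 in HPS32 and 0.32 in HJX, with 56.4% and 48.0% of all genes then called higher. Under it 28 of the 35 transcripts rose and 3 fell in each line, and their median moved with that of all genes, since a scaling shifts all genes alike. The distance of their median above that of all genes therefore stayed at 1.42 in HPS32 and 1.06 in HJX, which is no test of that distance. The limit given above, that a transcript high in a single group passes the filter through it, holds for this distance too.

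**Figure D2:**
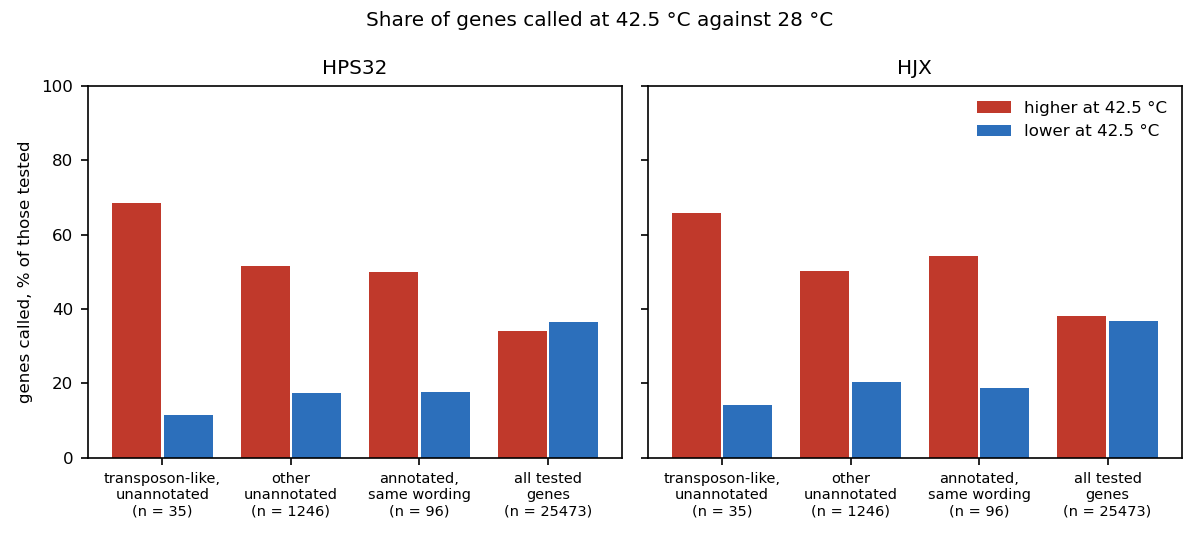
Percentage of tested genes called higher or lower at 42.5 °C against 28 °C in HPS32 (left) and HJX (right), for the unannotated transposon-like transcripts, other unannotated rows, annotated rows with the same wording and all tested genes. The bars for higher transposon-like transcripts reach 68.6% in HPS32 and 65.7% in HJX, where those for all tested genes reach 34.0% and 38.1%.

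The comparisons of the lines use separate libraries but share the estimates of spread of 1 model. The 22 transcripts that rose in both lines were 91.7% of those that rose in HPS32 and 95.7% of those that rose in HJX. Over all tested genes, the 7229 that rose in both lines were 83.5% of those that rose in HPS32 and 74.5% of those that rose in HJX, and the difference from the transcripts' shares was not tested. A further 4 fell in both, namely DNA5a, Gypsy1d, Copia3a and Copia4c, and none was called in opposite directions. Another 5 were called in neither line, namely Copia8b, DNA8a, DNA11a, Gypsy1b and Copia3b. The log2 fold change was at least 3 in both lines for 7 transcripts, which were Gypsy6a, Gypsy7a, Copia8a, Copia2b, LINE4a, Copia4a and Gypsy4a. The share of all tested genes with changes of that size is not given here.

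**Figure D3:**
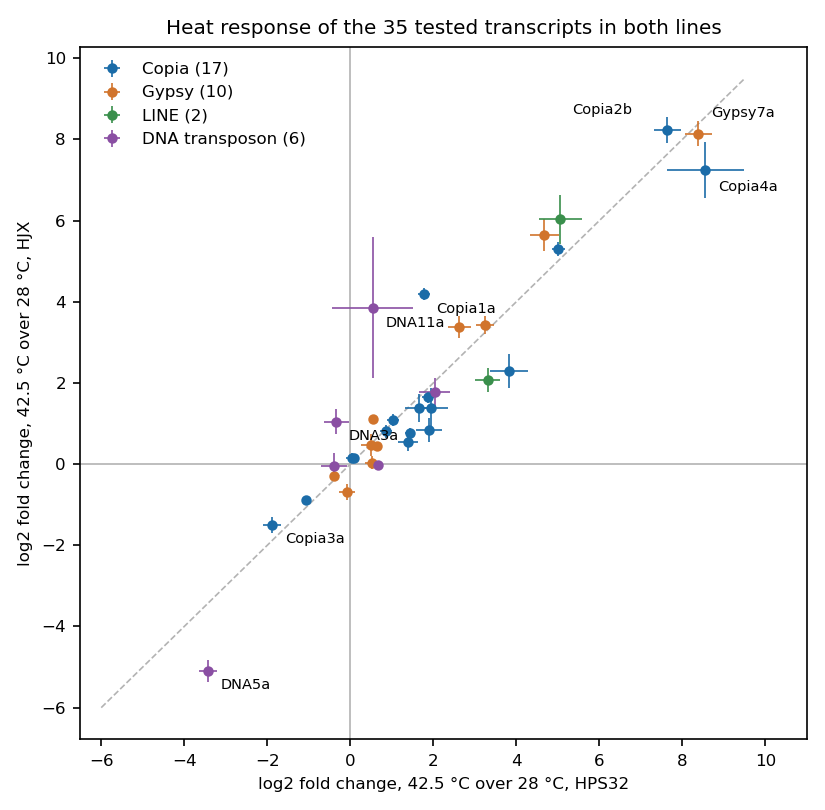
Log2 fold change at 42.5 °C over 28 °C in HPS32 (horizontal) and in HJX (vertical) for the 35 tested transcripts, with standard errors as bars, colours for the families and a dashed line of equal response. Most points lie in the upper right near the line, Copia1a lies above it and DNA5a below it, and Copia4a, which had no read in HPS32 at 28 °C, is drawn at its fitted value.

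Copia elements in general encode integrase ahead of reverse transcriptase. Of the 18 Copia-type transcripts here, 7 have both domains listed. Of all tested genes, 34.0% rose and 36.4% fell in HPS32, and 38.1% rose and 36.8% fell in HJX. The Copia-type transcripts rose in 13 of 17 tested cases and fell in 2, in each line. Their median log2 fold change was 1.66 in HPS32 and 1.08 in HJX. The clearest was Copia2b (chromosome 2, from 14873091 to 14882455, minus strand, 9365 bases), whose description lists GAG-pre-integrase, integrase and reverse transcriptase. It had 490, 616 and 627 reads in HPS32 at 42.5 °C, against 2, 0 and 4 reads in HPS32 at 28 °C. In HJX it had 761, 623 and 914 reads at 42.5 °C, against 2, 4 and 0 reads at 28 °C. It was thus nearly silent in all 6 libraries at 28 °C and present in all 6 at 42.5 °C, with a log2 fold change of 7.64 (SE 0.34, adjusted p = 1.03e-11, edgeR) in HPS32 and 8.22 (SE 0.33, adjusted p = 2.02e-12) in HJX.

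The next Copia-type transcript, Copia8a (chromosome 8, from 1848402 to 1853008, plus strand, 4607 bases) carries all 4 of the domains counted above. Its level was 57.7, 74.2 and 81.3 CPM in HPS32 at 42.5 °C, against 1.83, 2.35 and 2.39 CPM in HPS32 at 28 °C. In HJX it was 56.0, 51.2 and 60.9 CPM at 42.5 °C, against 1.24, 1.76 and 1.23 CPM at 28 °C. The fold change was 32.3 in HPS32 (log2 5.01, SE 0.16, adjusted p = 4.19e-15, edgeR) and 39.3 in HJX (log2 5.29, SE 0.17, adjusted p = 2.49e-15). Of the other 3 transcripts with all 4 domains, Copia2a and Copia7a rose in both lines, by log2 1.44 and 1.03 in HPS32 and 0.77 and 1.08 in HJX. The remaining one, Copia3b, was called in neither line, with log2 fold changes of 0.09 (SE 0.10) in HPS32 and 0.15 (SE 0.10) in HJX.

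The Copia-type Copia4a lies in a locus where the table lists a transcript on each strand. It had 42, 33 and 92 reads in HPS32 at 42.5 °C, against 0 reads in all 3 libraries of HPS32 at 28 °C. In HJX it had 78, 78 and 88 reads at 42.5 °C, against 1, 0 and 0 reads at 28 °C. The transcript was at least 13.4-fold higher at 42.5 °C in HPS32, taking 3 reads per library as the floor, and in HJX the scaled ratio of its counts was 202 (95% exact interval 35.9 to 8007, counting error only). Its partner Copia4b spans the same coordinates on the minus strand, with 9122 bases, and had 0 reads in all 12 libraries. Strand handling in the counting is not given in the sources used here.

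The smaller Copia-type Copia9a (chromosome 9, from 3325400 to 3327441, minus strand) had 62, 60 and 60 reads in HPS32 at 42.5 °C, against 6, 0 and 3 reads in HPS32 at 28 °C. In HJX it had 36, 32 and 40 reads at 42.5 °C, against 5, 5 and 8 reads at 28 °C. Groups did not overlap, and the log2 fold change was 3.83 (SE 0.46, adjusted p = 4.04e-07, edgeR) in HPS32 and 2.29 (SE 0.42, adjusted p = 6.91e-05) in HJX.

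The 2 Copia-type transcripts that fell were Copia3a and Copia4c, and both fell in each line. The transcript with the most reads of all 38 was Copia4c (chromosome 4, from 16861700 to 16872559, minus strand, 8714 bases), whose description adds a PIF1-like helicase, a helicase also found in Helitron DNA transposons, to a reverse transcriptase. Its level was 113, 103 and 112 CPM in HPS32 at 42.5 °C, against 229, 246 and 206 CPM in HPS32 at 28 °C. In HJX it was 127, 131 and 123 CPM at 42.5 °C, against 205, 251 and 246 CPM at 28 °C. The libraries at 42.5 °C were all below those at 28 °C, with a log2 fold change of -1.06 (SE 0.09, adjusted p = 1.49e-09, edgeR) in HPS32 and -0.88 (SE 0.09, adjusted p = 1.48e-08) in HJX. Without it the other transcripts took 0.0873 ± 0.00318% of reads in HPS32 at 42.5 °C, 0.0246 ± 0.00065% in HPS32 at 28 °C, 0.0990 ± 0.00383% in HJX at 42.5 °C and 0.0277 ± 0.00382% in HJX at 28 °C. That is 3.54 times as much at 42.5 °C in HPS32 and 3.57 times in HJX. These are read shares without TMM scaling, a scale on which the median of all genes also rose.

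Gypsy elements in general encode reverse transcriptase ahead of integrase. Of the 10 Gypsy-type transcripts here, 6 have an integrase core listed and 0 a reverse transcriptase. Of all tested genes, 34.0% rose and 36.4% fell in HPS32, and 38.1% rose and 36.8% fell in HJX. The Gypsy-type transcripts rose in 7 of 10 cases and fell in 1 in HPS32 (median log2 fold change 0.60). They rose in 6 and fell in 2 in HJX (median 0.79). Largest was the change of Gypsy7a (chromosome 7, from 13867220 to 14040246, plus strand), a transcript of 8645 bases over a span of 173 kb, closest to the Pol polyprotein of opus, a Gypsy-type element of Drosophila. It had 1293, 1526 and 1466 reads in HPS32 at 42.5 °C, against 2, 7 and 0 reads in HPS32 at 28 °C. In HJX it had 1542, 1318 and 1695 reads at 42.5 °C, against 3, 9 and 1 reads at 28 °C. The fold change was 334 in HPS32 (log2 8.39, SE 0.33, adjusted p = 5.51e-10, edgeR) and 283 in HJX (log2 8.14, SE 0.31, adjusted p = 3.01e-10), and at 42.5 °C its level of 8.61 ± 0.876 CPM per kilobase in HPS32 and 10.2 ± 0.587 in HJX (SD, n = 3 each) lay above the median of all tested genes.

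Another Gypsy-type transcript, Gypsy6a (chromosome 6, from 17353399 to 17360682, plus strand), matched the Gag-Pol polyprotein of yeast Ty3. It had 136, 130 and 166 reads in HPS32 at 42.5 °C, against 4 reads in each library of HPS32 at 28 °C. In HJX it had 124, 122 and 138 reads at 42.5 °C, against 5, 1 and 0 reads at 28 °C. All libraries at 42.5 °C stood far above those at 28 °C, with a log2 fold change of 4.67 (SE 0.35, adjusted p = 4.22e-10, edgeR) in HPS32 and 5.65 (SE 0.39, adjusted p = 1.08e-10) in HJX.

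The Gypsy-type Gypsy4a (chromosome 4, from 10699304 to 10706304, minus strand), lies 71.5 kb from the nearest annotated gene, the longest such distance of the 38. Its level was 9.69, 8.95 and 8.66 CPM in HPS32 at 42.5 °C, against 1.10, 0.712 and 1.06 CPM in HPS32 at 28 °C. In HJX it was 9.09, 9.17 and 9.70 CPM at 42.5 °C, against 0.728, 1.04 and 0.795 CPM at 28 °C. The response was close to equal in the lines, 9.46-fold in HPS32 (adjusted p = 5.77e-11, edgeR) and 10.7-fold in HJX (adjusted p = 2.19e-11).

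The longest transcript, Gypsy1c, had 112, 119 and 115 CPM in HPS32 at 42.5 °C, against 15.6, 18.2 and 22.4 CPM in HPS32 at 28 °C. In HJX it had 300, 275 and 310 CPM at 42.5 °C, against 15.4, 34.3 and 35.1 CPM at 28 °C. In CPM it was the most abundant of the 38 at 42.5 °C in both lines, and it rose 6.16-fold in HPS32 (adjusted p = 2.49e-05, edgeR) and 10.4-fold in HJX (adjusted p = 3.33e-06). The Gypsy-type Gypsy5a and Gypsy11a changed less, by log2 0.65 (SE 0.09) and 0.55 (SE 0.10) in HPS32 and by 0.43 (SE 0.09) and 1.11 (SE 0.10) in HJX, all called.

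Falls among the Gypsy-type transcripts were small. For Gypsy1d (chromosome 1, from 31906421 to 31911738, minus strand) the log2 fold change was -0.39 (SE 0.11, adjusted p = 0.00563, edgeR) in HPS32 and -0.29 (SE 0.12, adjusted p = 0.0316) in HJX. Scaling by total counts turned this to 0.18 (adjusted p = 0.183) in HPS32 and 0.01 (adjusted p = 0.958) in HJX, while the median of all genes moved to 0.54 in HPS32 and 0.32 in HJX. Its sign thus changed with that common shift, and under both scalings it lay below the median of all genes. The fall of Gypsy1a, called in HJX alone (log2 -0.68, SE 0.20, adjusted p = 0.00433), was not called under that scaling either (adjusted p = 0.0885).

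Both LINE-type transcripts rose in both lines, where 34.0% of all tested genes rose in HPS32 and 38.1% in HJX. The shorter, LINE4a (chromosome 4, from 7916052 to 7917971, plus strand, 1894 bases), is closest to the R2 element of Drosophila. It had 91, 73 and 80 reads in HPS32 at 42.5 °C, against 1, 0 and 4 reads in HPS32 at 28 °C. In HJX it had 69, 62 and 51 reads at 42.5 °C, against 0, 2 and 0 reads at 28 °C. The log2 fold change was 5.06 (SE 0.51, adjusted p = 3.73e-08, edgeR) in HPS32, and in HJX, with 2 reads at 28 °C, the scaled ratio of counts was 75.3 (95% exact interval 20.5 to 627, counting error only).

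The other, LINE9a (chromosome 9, from 21103598 to 21108416, plus strand), matched the reverse transcriptase of LINE-1. Its level was 6.92, 9.11 and 8.19 CPM in HPS32 at 42.5 °C, against 0.439, 1.07 and 0.916 CPM in HPS32 at 28 °C. In HJX it was 3.47, 2.81 and 4.93 CPM at 42.5 °C, against 0.801, 0.718 and 1.16 CPM at 28 °C. It was higher in all HPS32 libraries at 42.5 °C than in any other, with a log2 fold change of 3.30 (SE 0.30, adjusted p = 7.24e-09, edgeR) in HPS32 and 2.07 (SE 0.31, adjusted p = 5.31e-06) in HJX.

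Of the 6 tested DNA transposon-type transcripts, 2 rose and 1 fell in each line, where 34.0% of all tested genes rose and 36.4% fell in HPS32 and 38.1% rose and 36.8% fell in HJX. A difference from the other families was not tested. The fall was that of DNA5a (chromosome 5, from 16426573 to 16432049, minus strand, 4339 bases), which has a plant transposon protein domain and, as its closest match, a glutathione S-transferase, an enzyme of detoxification. Its level was 1.18, 1.17 and 1.60 CPM in HPS32 at 42.5 °C, against 17.8, 14.2 and 10.7 CPM in HPS32 at 28 °C. In HJX it was 0.359, 0.437 and 0.577 CPM at 42.5 °C, against 17.7, 17.5 and 12.7 CPM at 28 °C. The groups did not overlap, and the log2 fold change was -3.43 (SE 0.23, adjusted p = 7.55e-11, edgeR) in HPS32 and -5.09 (SE 0.27, adjusted p = 1.75e-12) in HJX.

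Transcripts of the hAT type, whose transposase resembles that of maize Activator, were called in different ways. One of them, DNA1b, rose in both lines, by log2 2.03 (SE 0.38, adjusted p = 8.45e-05, edgeR) in HPS32 and 1.76 (SE 0.36, adjusted p = 0.000185) in HJX. By contrast DNA8a, similar to the domesticated transposase DAYSLEEPER of Arabidopsis, was called in neither line, with log2 fold changes of -0.39 (SE 0.31) in HPS32 and -0.05 (SE 0.31) in HJX. The remaining one, DNA6a, rose in HPS32 alone and is described below with the differences between the lines.

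Reads of DNA11a in HPS32 and of DNA1a at 28 °C were uneven between the libraries of a group. The first, with a transposase DDE domain, had 13, 20 and 1 reads in HPS32 at 42.5 °C, against 1, 0 and 16 reads in HPS32 at 28 °C. In HJX it had 5, 6 and 12 reads at 42.5 °C, against 1, 0 and 0 reads at 28 °C, a scaled ratio of counts of 19.0 (95% exact interval 3.09 to 784, counting error only). That difference was not called (adjusted p = 0.0591, edgeR), but a fit with a block for replicate numbers called it (adjusted p = 0.00574). The second, too low to be tested, had 14 reads in replicate 3 of HPS32 and 16 reads in replicate 3 of HJX at 28 °C, and at most 5 reads in any of the other 10 libraries.

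The design also asks whether the heat response differs between the lines, which the interaction tests, as the log2 response of HPS32 minus that of HJX. It was above 0 for 4 of the 35 transcripts and below 0 for 3, where 13.3% of all tested genes were called above 0 and 16.0% below. With total counts as the scaling the split was 9 above and 1 below, where 25.8% of all tested genes were called above 0. The median of all genes was then 0.28. Largest was the difference of Copia1a (chromosome 1, from 16684014 to 16691426, plus strand, 5574 bases), closest to the Gag-Pol polyprotein of the yeast Copia-type element Ty4. Its level was 16.8, 14.5 and 15.3 CPM in HPS32 at 42.5 °C, against 4.03, 3.92 and 5.71 CPM in HPS32 at 28 °C. In HJX it was 112, 93.0 and 94.6 CPM at 42.5 °C, against 4.59, 6.46 and 5.28 CPM at 28 °C. The lines overlapped at 28 °C and stood far apart at 42.5 °C, where HPS32 was lower by log2 -2.68 (SE 0.12, adjusted p = 4.34e-12, edgeR), and the interaction was -2.42 (SE 0.20, adjusted p = 7.49e-08).

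The fall of DNA5a was less deep in HPS32, with an interaction of 1.66 (SE 0.39, adjusted p = 0.00323, edgeR), and under heat its level in HPS32 was 2.82-fold that in HJX (adjusted p = 0.00145). The hAT-type DNA6a had 59.0, 62.8 and 65.0 CPM in HPS32 at 42.5 °C, against 37.2, 39.8 and 40.1 CPM in HPS32 at 28 °C. In HJX it had 39.6, 39.5 and 34.9 CPM at 42.5 °C, against 38.01, 39.4 and 38.4 CPM at 28 °C. Only the 3 libraries of HPS32 at 42.5 °C stood apart, and the interaction was 0.70 (SE 0.11, adjusted p = 7.21e-05). The Copia-type Copia2a, whose description also names the NB-ARC domain of plant resistance proteins, had 25.7, 25.5 and 25.7 CPM in HPS32 at 42.5 °C, against 9.16, 10.5 and 8.59 CPM in HPS32 at 28 °C. In HJX it had 14.7, 14.7 and 14.2 CPM at 42.5 °C, against 6.92, 9.92 and 8.68 CPM at 28 °C, and the interaction was 0.67 (SE 0.18, adjusted p = 0.00772).

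The remaining 3 differences were less firm. For Gypsy11a, closest to the polyprotein of the fission yeast Gypsy-type element Tf2, the rise was 1.46-fold in HPS32 and 2.16-fold in HJX, and the interaction of -0.56 (SE 0.14, adjusted p = 0.0052, edgeR) was not called with total counts as the scaling (-0.30, adjusted p = 0.135). For LINE9a the interaction was 1.23 (SE 0.46, adjusted p = 0.0482), and the adjusted p lay between 0.0616 and 0.153 when any 1 of 8 libraries was left out, namely heat libraries 2 and 3 and 28 °C replicates 1 and 3 of HPS32, and heat libraries 1 and 2 and 28 °C replicates 1 and 3 of HJX. The Harbinger-type DNA3a (chromosome 3, from 34131058 to 34143818, plus strand) had 1.18, 1.55 and 1.80 CPM in HPS32 at 42.5 °C, against 1.32, 2.35 and 2.04 CPM in HPS32 at 28 °C. In HJX it had 3.05, 1.87 and 2.73 CPM at 42.5 °C, against 1.02, 1.24 and 1.45 CPM at 28 °C. Its interaction of -1.38 (SE 0.44, adjusted p = 0.023) missed the threshold with total counts as the scaling, and without HPS32 heat library 1, HPS32 28 °C replicate 2, HJX heat library 1 or 3, or HJX 28 °C replicate 1 (adjusted p 0.0521 to 0.0703). A fit with a block for replicate numbers also called the interaction of Gypsy1c, at -0.80 (SE 0.16, adjusted p = 0.0013), against -0.76 (SE 0.37, adjusted p = 0.171) without it.

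**Figure D4:**
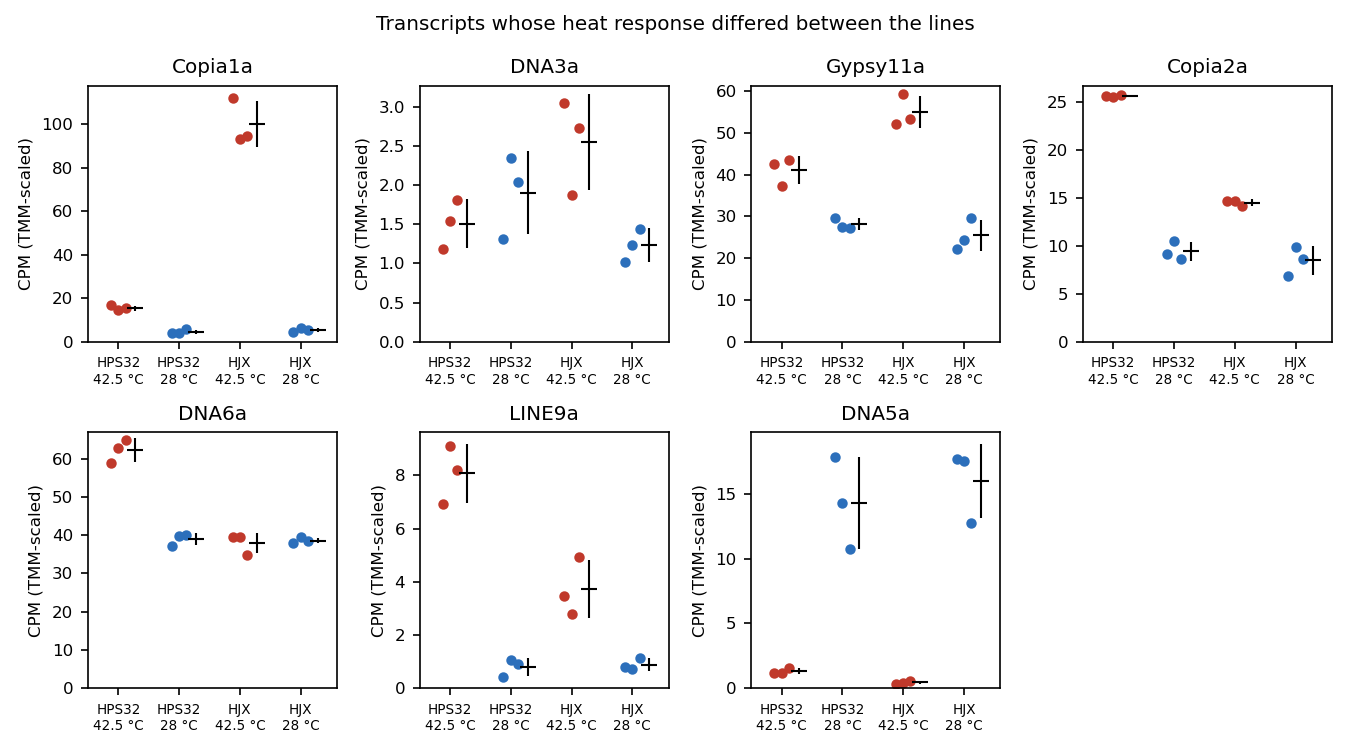
TMM-scaled CPM of the 7 transcripts whose heat response differed between the lines, each in its own panel with an axis from 0, with a point per library (red at 42.5 °C, blue at 28 °C) and the group mean ± SD beside the points (n = 3 each). In Copia1a the 3 HJX libraries at 42.5 °C lie between 93.0 and 112 CPM, above all others, and in DNA6a and Copia2a the 3 HPS32 libraries at 42.5 °C are the highest.

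Set directly against each other at 42.5 °C, HPS32 was higher than HJX for 6 transcripts and lower for 7, where 21.6% of all tested genes were higher and 23.6% lower. The split was 8 higher and 5 lower with RLE scaling, where 24.2% of all tested genes were higher. With total counts it was 14 higher and 3 lower, where 38.7% of all tested genes were higher and their median was 0.28. It was also 8 higher and 8 lower with the replicate block, which added Gypsy5a (0.21, adjusted p = 0.0362, edgeR) and Gypsy10a (0.39, adjusted p = 0.0306) as higher and Gypsy7a (-0.24, adjusted p = 0.0171) as lower in HPS32. Beside Copia1a, the largest falls in HPS32 were those of Copia3a (log2 -1.67, SE 0.22, adjusted p = 4.16e-05) and Gypsy1c (-1.35, SE 0.25, adjusted p = 0.00213). Beside DNA5a, LINE9a, Copia2a and DNA6a, HPS32 was higher for Copia7b (1.14, SE 0.37, adjusted p = 0.0175) and Copia8a (0.34, SE 0.11, adjusted p = 0.019).

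Several of these calls under heat rested on single libraries. That of Copia7b was lost without HPS32 heat library 2 or HJX heat library 1 (adjusted p 0.0729 and 0.0865, edgeR). That of Copia8a was lost when heat library 2 or 3 of HPS32, or 1 or 2 of HJX, was left out (adjusted p between 0.0556 and 0.14), and its groups overlapped. For Copia2b, lower in HPS32 by log2 -0.55 (SE 0.16, adjusted p = 0.0117), the call was lost without HPS32 heat library 1 (adjusted p = 0.0624) or HJX heat library 3 (adjusted p = 0.0579). For DNA3a, lower by -0.76 (SE 0.29, adjusted p = 0.0413), it was lost when heat library 1 or 2 of HPS32, or 1 or 3 of HJX, was left out (adjusted p between 0.0836 and 0.161), and also with DESeq2 (0.0803), RLE scaling (0.0543) and no filter (0.0512). The 4 calls of Gypsy11a (-0.42, adjusted p = 0.00153), Copia4c (-0.22, adjusted p = 0.0424), Copia2b and DNA3a were not made with total counts as the scaling, under which Copia4c turned to 0.04.

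At 28 °C the lines differed in 1 of the 35 transcripts, where 0.0432% of all tested genes were higher in HPS32 and 0.0432% lower, 22 genes in all. It was Copia3a (chromosome 3, from 14019375 to 14021287, plus strand, 1639 bases), a Copia-type transcript with a GAG-pre-integrase domain, on the chromosome of TT2 and 2.71 Mb from it. Of the 22 genes called, 7 lay on chromosome 3 and 1 within 5 Mb of TT2. The level of Copia3a was 5.08, 4.90 and 5.31 CPM in HPS32 at 42.5 °C and 15.9, 22.3 and 18.2 CPM in HPS32 at 28 °C. In HJX it was 13.9, 18.9 and 15.8 CPM at 42.5 °C and 35.2, 40.0 and 61.6 CPM at 28 °C. HPS32 lay below HJX at both temperatures with no overlap, and the log2 difference at 28 °C was -1.28 (SE 0.20, adjusted p = 0.0329, edgeR). That call was lost in 11 of 19 alternatives, among them the compared groups alone (adjusted p = 0.659, edgeR). It was also lost without any 1 of the 3 HPS32 heat libraries, HJX heat library 3, any 1 of the 3 HPS32 28 °C replicates or HJX 28 °C replicate 2 (adjusted p 0.051 to 0.203). The difference stayed between -1.43 and -0.9991 throughout. Heat lowered Copia3a in each line, by log2 -1.88 (SE 0.22, adjusted p = 4.93e-06) in HPS32 and -1.49 (SE 0.20, adjusted p = 1.27e-05) in HJX.

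Each transcript was also set beside its nearest annotated gene. Of the 35 tested transcripts, 23 had a nearest gene that was itself tested. Among the 15 of these that rose in HPS32, the neighbour rose in 8 cases, fell in 3 and was not called in 4, with a median log2 fold change of 0.31, against 1.88 for the transcripts. Among the 15 that rose in HJX, the neighbour rose in 9, fell in 3 and was not called in 3, with a median of 0.59, against 2.07 for the transcripts. For comparison, 34.0% of all tested genes rose in HPS32 and 38.1% in HJX.

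Some neighbours changed in the same direction as the transcript, by a smaller log2 fold change or, for that of Gypsy6a in HJX, by a similar one. Os02g0452000, 1.79 kb downstream of Copia2b on the opposite strand, rose by log2 4.38 (SE 0.72, adjusted p = 2.13e-05, edgeR) in HPS32 and 4.38 (SE 0.88, adjusted p = 0.000175) in HJX. Os06g0496601, 1.28 kb downstream of Gypsy6a on the same strand, rose by 3.98 (SE 0.71) in HPS32 and 5.60 (SE 0.55) in HJX. Os05g0348100, 3.39 kb downstream of DNA5a on the same strand, fell by 2.84 (SE 0.10) on the log2 scale in HPS32 and by 3.76 (SE 0.11) in HJX, and its interaction of 0.92 (SE 0.15, adjusted p = 0.000123) had the sign of that of DNA5a. Os01g0392600, 2.54 kb downstream of Copia1a on the same strand and with 264209 reads over the 12 libraries, likewise rose less in HPS32 (0.82, SE 0.18) than in HJX (2.01, SE 0.19), with an interaction of -1.18 (SE 0.26, adjusted p = 0.00513). The part of these neighbours in the transcripts' values was not tested.

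Other neighbours changed in the opposite direction, had no reads, or changed by less or by more than their transcript. Os04g0353600, 10.1 kb upstream of Copia4c on the opposite strand, fell further than Copia4c. It changed by log2 -4.84 (SE 0.51) in HPS32 and -6.53 (SE 0.59) in HJX. Os09g0244200, 15.2 kb upstream of Copia9a on the same strand, rose to an extent similar to Copia9a. Its log2 fold change was 3.64 (SE 0.55) in HPS32 and 2.41 (SE 0.48) in HJX. The methyltransferase-type gene Os04g0218400, 1.25 kb upstream of LINE4a on the same strand, changed by -0.24 (SE 0.08, adjusted p = 0.0105, edgeR) in HPS32 and -0.69 (SE 0.08, adjusted p = 1.79e-07) in HJX, while LINE4a rose. The nearest gene to Gypsy7a, 66.3 kb away, and that of Gypsy1c, 6.04 kb away, had 0 reads in all libraries. Os08g0517300, an arsenite-resistance-type gene 0.185 kb upstream of Copia8c on the same strand, rose by 0.31 (SE 0.07) in HPS32 and 0.71 (SE 0.07) in HJX, against 1.88 (SE 0.15) in HPS32 and 1.64 (SE 0.15) in HJX for Copia8c.

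**Figure D5:**
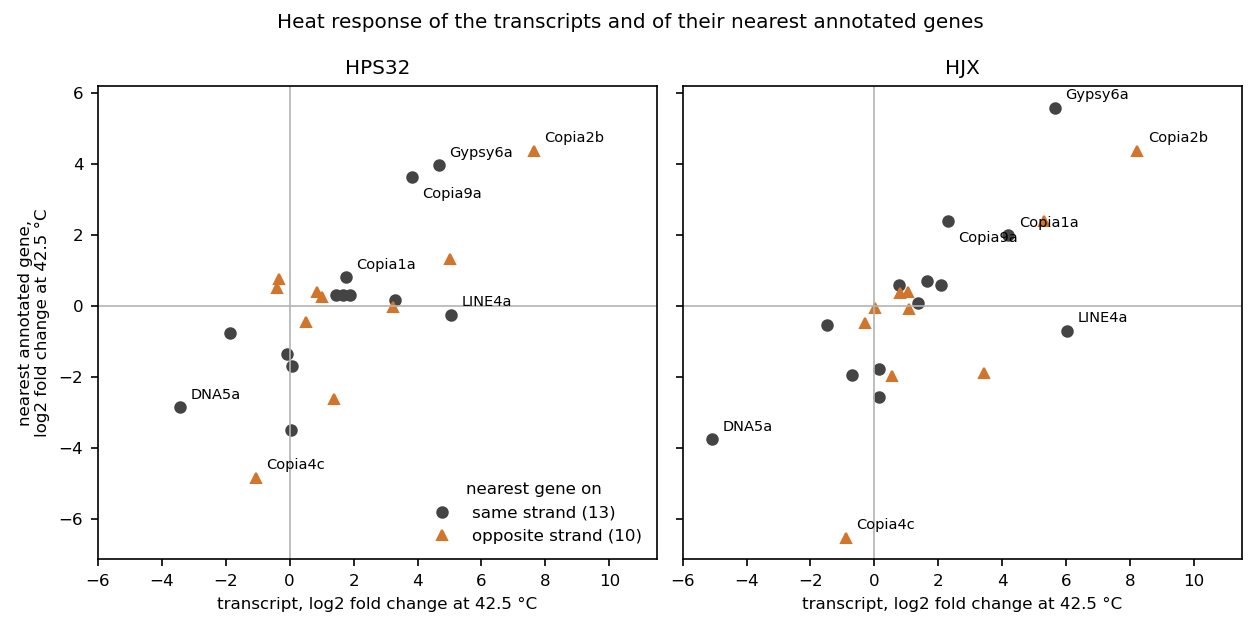
Log2 fold change at 42.5 °C of the nearest annotated gene (vertical) against that of the transcript (horizontal) in HPS32 (left) and HJX (right) for the 23 pairs with both tested, circles for neighbours on the same strand and triangles for the opposite strand. Pairs such as those of Gypsy6a, Copia2b and DNA5a lie far from 0 on both axes, and that of LINE4a is far to the right with its neighbour just below 0.

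Genes of the machinery that silences transposons and, as a separate list, heat stress transcription factors were counted from lists defined by domain wording. No list was tested as a set, and each count is to be read against the share of all tested genes, of which 34.0% rose and 36.4% fell in HPS32 and 38.1% rose and 36.8% fell in HJX. RNA-dependent RNA polymerases, which make double-stranded RNA for small RNAs, rose in 6 of 6 tested cases in each line, with a median log2 fold change of 2.04 in HPS32 and 1.88 in HJX. The largest was the rise of Os01g0198100 in HPS32, by 5.14 (SE 0.29, adjusted p = 6.12e-12, edgeR), to 7.83 ± 0.721 CPM at 42.5 °C, against 0.214 ± 0.0676 CPM at 28 °C (SD, n = 3 each). In HJX the largest was that of Os01g0198000, by 3.13 (SE 0.25, adjusted p = 1.01e-09). Those 2 genes are neighbours in their identifiers, and reads of near-identical copies may be split between them.

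Genes with a Dicer domain, or a PAZ domain and no Piwi domain, were listed for the Dicers, which cut double-stranded RNA, and they rose in 4 of 6 and fell in 1 in each line. Os10g0485600, with ribonuclease III and PAZ domains, stood at 23.4 ± 1.16 CPM in HPS32 at 42.5 °C, 3.32 ± 0.574 CPM in HPS32 at 28 °C, 22.9 ± 3.03 CPM in HJX at 42.5 °C and 2.73 ± 0.680 CPM in HJX at 28 °C. Its log2 fold change was 2.81 (SE 0.16, adjusted p = 1.10e-11, edgeR) in HPS32 and 3.07 (SE 0.17, adjusted p = 3.03e-12) in HJX. The fall in that list, -0.21 in HPS32 and -0.23 in HJX, was that of Os04g0566500, whose domains are those of an Argonaute and which, with no Piwi domain listed, is not in the next count. Genes with a Piwi domain, the part of Argonautes that can cut RNA, rose in 6 and fell in 1 of 13 in HPS32, and rose in 3 and fell in 5 in HJX. Os04g0615800 of this list rose by 3.75 (SE 0.44) in HPS32 and 4.13 (SE 0.39) in HJX, and Os02g0672200 fell by 0.74 (SE 0.08) on the log2 scale in HPS32.

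DNA cytosine methylases, which write DNA methylation, rose in 2 and fell in 4 of 6 in HPS32, and rose in 1 and fell in 3 in HJX. Os10g0104900, with a chromodomain and a BAH domain as in plant chromomethylases, had 7.51 ± 2.11 CPM in HPS32 at 42.5 °C, 16.7 ± 3.25 CPM in HPS32 at 28 °C, 2.72 ± 0.289 CPM in HJX at 42.5 °C and 17.9 ± 5.08 CPM in HJX at 28 °C. It fell in both lines, with a log2 fold change of -1.15 (SE 0.22, adjusted p = 0.000308, edgeR) in HPS32 and -2.72 (SE 0.25, adjusted p = 1.16e-07) in HJX. Os03g0226800, of the same domain make-up, rose in both, by 1.52 (SE 0.46) in HPS32 and 1.71 (SE 0.41) in HJX.

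SRA-domain genes, many of them histone methyltransferases, rose in 7 and fell in 1 of 13 in HPS32, and rose in 9 and fell in 1 in HJX. The one that fell, Os04g0544100, did so by 1.37 (SE 0.13) on the log2 scale in HPS32 and by 1.63 (SE 0.13) in HJX. SNF2-type remodellers, the family of DDM1, which gives methylases access to heterochromatin in Arabidopsis, rose in 18 and fell in 5 of 32 in HPS32, and rose in 20 and fell in 6 in HJX. The largest rises were those of Os02g0762800 in HPS32 (2.93, SE 0.17) and Os10g0565700 in HJX (3.70, SE 0.25), and the largest falls those of Os03g0101700 in HPS32 (-1.31, SE 0.09) and Os09g0442700 in HJX (-1.05, SE 0.15). Histone deacetylases rose in 2 and fell in 6 of 12 in HPS32, and rose in 3 and fell in 4 in HJX. Heat stress transcription factors, the separate list, rose in 5 and fell in 12 of 22 in HPS32, and rose in 9 and fell in 10 in HJX. The largest rise in each line was that of Os06g0565200, from 0 CPM at 28 °C to 1.87 ± 0.890 CPM in HPS32 and 5.94 ± 0.487 CPM in HJX. The largest falls were those of Os03g0161900 in HPS32 (-2.78, SE 0.35) and Os09g0455200 in HJX (-3.04, SE 0.57).

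Lists for other cells and compartments were counted as well, again with no test of a list. Of all tested genes, 34.0% rose and 36.4% fell in HPS32, and 38.1% rose and 36.8% fell in HJX. In HPS32 and in HJX, 9 of 16 tested organelle-encoded genes rose, with falls in 3 and 5, and alpha-amylase genes of starch breakdown rose in 5 and 8 of 11 and fell in 2 and 1. KNOX homeobox genes of meristems fell in 4 of 6 in HPS32 and 5 of 6 in HJX with no rise, and cupin genes, which include seed storage proteins, rose in 9 and fell in 22 of 38 in HPS32 and rose in 14 and fell in 21 in HJX. The part of these changes in the transposon-like transcripts' levels was not tested. How reads that match several near-identical element copies were counted is not given in the sources used here, so each value is that of the row and may include reads of other copies.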

How the data were processed

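RNA was sequenced from aerial organs of rice seedlings in 4 groups of 3 libraries. The submitters' processing notes name HISAT2 2.0.5 for alignment and featureCounts 1.5.0-p3 for counting. The deposited table holds read counts per gene and library. The authors also deposited log2 fold changes and adjusted p-values for 4 comparisons, for which the notes name DESeq2 1.20.0. In the authors' deposited table, 24 of the transposon-like transcripts were higher and 4 lower under heat in HPS32, and 21 higher and 5 lower in HJX. How unannotated transcripts were added is not given in the sources used here. A further 12 columns of FPKM and 8 of group means were not used.

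Analysis of the counts used edgeR 4.0.16 in R 4.3.3: filterByExpr, TMM scaling, 1 model of 12 libraries with a mean per group, and two-sided quasi-likelihood F tests for 5 comparisons, adjusted by Benjamini-Hochberg over all tested genes. CPM are TMM-scaled, and levels per kilobase divide them by the deposited gene length. The SE of a log2 fold change is its absolute value over the root of its F statistic. With no read in a group, a bound uses 3 reads per library, and with 1 to 3 reads a ratio has an exact 95% interval. Both cover counting error only. The code was tested on simulated data.

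The transcripts, the lists and the tests were chosen with earlier results of these data known. Transcripts were named by a rule on the size of change, level and length: per heat comparison the 8 largest called rises and 6 largest called falls, and per comparison of lines 6 of each, average log2 CPM 0 or more and, for heat, no overlap, plus the 8 most abundant, the 3 longest and the largest change of each wording class. Others named with values were chosen after their values were seen. Same-numbered 28 °C libraries of the lines tended to deviate together (r = 0.426, 0.113 and 0.403 over 20958 genes, against -0.431 to 0.0748 for different numbers). The value of 0.113 lay little above the highest for different numbers. A pairing by number is not in the labels and was not tested. A fit with a block for these numbers was an alternative. The block has a term for the 28 °C libraries alone, because the heat libraries cannot be tied to a number. Other alternatives were scaling by RLE or by total counts, testing without a filter, a stricter filter (1 CPM in 3 libraries), DESeq2 1.42.0, the compared groups alone, a 2-fold threshold and leaving out each library.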

Additional observations from a re-analysis of the deposited data

Results flagged for a closer look

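The heat response of 7 transcripts differed between the lines by a test of the difference itself, taken as the log2 response of HPS32 minus that of HJX (edgeR, interaction adjusted over all tested genes). It was -2.42 for Copia1a, -1.38 for DNA3a and -0.56 for Gypsy11a, and 1.66 for DNA5a, 1.23 for LINE9a, 0.70 for DNA6a and 0.67 for Copia2a. Of all tested genes, 13.3% were called above 0 and 16.0% below. The calls of LINE9a, DNA3a and Gypsy11a were lost in 8, 6 and 1 of 18 refits. Groups of 3 libraries are too small for a check of single outlying samples.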

How the results depend on the processing

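Leaving out each of the 12 libraries in turn gave, for heat in HPS32, 24 to 25 transcripts called up, 4 down and a median log2 fold change of 1.15 to 1.44. For heat in HJX it gave 21 to 24 up, 4 to 6 down and 0.97 to 1.15. For the lines under heat it gave 4 to 7 up, 4 to 7 down (4 without HPS32 heat library 1 or HJX heat library 3) and 0.04 to 0.16. For the interaction it gave 3 to 5 up, 2 to 4 down and -0.06 to 0.12. At 28 °C it gave 0 up and 0 to 2 down, with 2 without HJX 28 °C replicate 1 and a median of -0.05 to 0.06.

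With total counts as the scaling the calls down were 3 for heat in HJX, and the medians 1.96 (HPS32) and 1.38 (HJX). The lines under heat then had 14 up, 3 down and a median of 0.39, the interaction 9 up, 1 down and 0.30, and the lines at 28 °C 0 down. In HPS32, Gypsy1d turned to 0.18. The 1 call at 28 °C became 0 with no filter, with the compared groups alone and without transcripts within 1 kb of a same-strand gene. Requiring a 2-fold change left 2 down for heat in HJX, 3 up and 3 down under heat and 2 up in the interaction. Leaving out transcripts with domains of another kind, a choice made after seeing the data as was the one on 1 kb, left 2 down in HPS32, 3 down in HJX and 2 up in the interaction. The causes were not tested. Without Copia4c the share of reads was 0.0873% (HPS32, 42.5 °C), 0.0246% (HPS32, 28 °C), 0.0990% (HJX, 42.5 °C) and 0.0277% (HJX, 28 °C). As a share of unannotated reads, in the same order of groups, all 38 transcripts took 4.91, 6.91, 4.86 and 7.43%, and those without Copia4c, an alternative added after seeing the data, 4.24, 3.85, 4.28 and 4.29%. Removing descriptions of reverse transcriptase-like folds, or transcripts that overlap genes, removed none.

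With the replicate block, which covers the 28 °C libraries alone, the calls were 24 up and 5 down for heat in HJX, 8 and 8 for the lines under heat and 4 and 4 for the interaction. Beside the 5 calls given in the report (DNA11a, Gypsy7a, Gypsy5a, Gypsy10a and Gypsy1c), the block changed no other call of these transcripts. Of 47 results on named transcripts, 36 kept direction and call in all refits, which numbered 19 per result and 18 for the interaction. The 2-fold threshold was not among these refits. Some of the 36 fall short of it, such as the interactions of DNA6a (0.70) and Copia2a (0.67). At this depth 12 transcripts had under 30 reads over the 3 libraries of HPS32 at 28 °C and 11 in HJX at 28 °C, which limits the precision of their folds.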
